A study of Mus musculus with 3 samples.

Results

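The cells described here are Six2-positive nephron progenitors of the fetal mouse kidney in which no Cited1 transcript was counted. They were chosen from measured counts. Of 7924 cell barcodes, a gate kept cells with at least 1000 detected genes, at most 10% mitochondrial transcripts, 10000 to 20000 unique molecular identifiers (UMIs, each one counted transcript molecule), at least 2 Six2 UMIs, and 0 UMIs of Wnt4, Lhx1, Pax8 and Fgf8. The gate held 1406 cells, and 460 of them had 0 Cited1 UMIs (171, 137 and 152 in libraries 1, 2 and 3). These are called Cited1-zero cells. They are compared with 415 Cited1-high cells of the same gate, which had at least 4 Cited1 UMIs (112, 158 and 145), and with 85 Wnt4-positive cells (38, 25 and 22), which had at least 1 Six2 and 1 Wnt4 UMI, 0 Lhx1 and Cited1 UMIs, and the same limits on genes, mitochondrial share and UMIs.

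Nephron progenitors form a cap of mesenchyme around each tip of the branching ureteric bud. The transcription factor Six2 holds them in a self-renewing state. Cited1, a transcriptional co-regulator with no DNA-binding domain of its own, marks the outer part of the cap, and its loss while Six2 persists is commonly placed ahead of Wnt4, Pax8, Fgf8 and Lhx1, the genes of the pretubular aggregate and renal vesicle.

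All cells were from Six2GFP+ embryos at stage E14.5. A Six2-driven green fluorescent protein, together with a gate on dead cells, debris and doublets, was used to sort them, so fluorescent protein that outlasts Six2 transcripts can carry cells into the sort. Kidneys of several litters were divided over 3 tubes and run side by side on the 10x Chromium system with version 2 chemistry. The 3 libraries are told apart by the barcode suffix. All belong to 1 group with no treatment. Each comparison was therefore made within a library, and p-values measure how differences within a tube vary over 3 tubes, which may be technical.

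The kept cells numbered 2114 to 3024 per library, at a median of 11915 to 15913.5 UMIs per cell. The summed UMIs of Cited1-zero cells were 2422539, 1771829 and 2128341 in libraries 1, 2 and 3. Library 2 stood apart: ribosomal protein genes took 14.6% of the UMIs of the gate there, against 26.9% and 23.2% in libraries 1 and 3, and immediate early genes 0.662% against 0.333% and 0.46%. In all, 22 barcodes occurred in 2 libraries, among them 4 of the Cited1-zero and 2 of the Cited1-high cells. The doublet caller Scrublet marked 0.253% of cells, far below the 3% it was set to expect. Whether it missed doublets was not tested. No cell was removed by it, and leaving out the highest scores is an alternative in the closing section.

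Six2, which the gate used, was at 194, 235 and 216 CPM (counts of a gene per 1000000 UMIs summed over the cells of the group) in Cited1-zero cells and at 195, 246 and 196 CPM in Cited1-high cells of libraries 1, 2 and 3. Eya1, the transcriptional partner of Six2 that the gate did not use, was at 201, 342 and 258 CPM in Cited1-zero and 203, 338 and 237 CPM in Cited1-high cells. The ranges of both genes overlapped, and Eya1 was found in 90.1%, 97.8% and 94.7% of Cited1-zero cells. Both markers named by the label were thus as the rule sets them, with Cited1 at 0. At the Six2 threshold, Cited1-zero cells with exactly 2 Six2 UMIs had 144, 159 and 144 CPM of Six2, and cells just outside with 1 UMI had 71.2, 79.6 and 72.5 CPM.

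Cells without Cited1 UMIs made up 36.2% (95% exact binomial interval 31.8 to 40.7), 27.8% (23.9 to 32) and 34.5% (30 to 39.1) of the gate, a mean of 32.8% ± 4.39 (SD, n = 3). These intervals cover counting error only. With every cell thinned to 10000 UMIs the mean share was 38.6%. A count of 0 is a limit and no proof of absence: 3 UMIs, the number a count of 0 allows, correspond to 300.0 CPM in a cell of 10000 UMIs and to 222 CPM at the median of 13525 UMIs. Summed Cited1 was at 491, 560 and 531 CPM in Cited1-high cells, and just outside the rule at 67.6, 77.4 and 70.5 CPM in cells with 1 Cited1 UMI and at 189, 222 and 196 CPM in cells with 3. Some cells scored as lacking Cited1 can thus have had it at the level of cells with 1 UMI, or even at that of cells with 3.

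Cited1 was spread over cells far more unevenly than most genes of its level. After thinning to 10000 UMIs, its variance over cells of the gate was 3.74, 3.83 and 4.23 times its mean. The median of the same ratio was 1.06, 1.07 and 1.05 among 439, 349 and 347 genes of like mean, and only 3, 3 and 2 of those genes reached the ratio of Cited1. Immune cells were also examined (24, 26 and 24 cells with at least 20 UMIs of immune markers). They had Cited1 at 33, 0 and 33.5 CPM and a Cited1 UMI in 16.7%, 0% and 8.33% of cells, at a median of 10279.5 UMIs in library 1. In libraries 1 and 3 all Cited1 UMIs of immune cells, 9 in each library, lay in these few cells. Whether they came from free RNA was not tested, so the values are no measure of it.

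**Figure D1:**
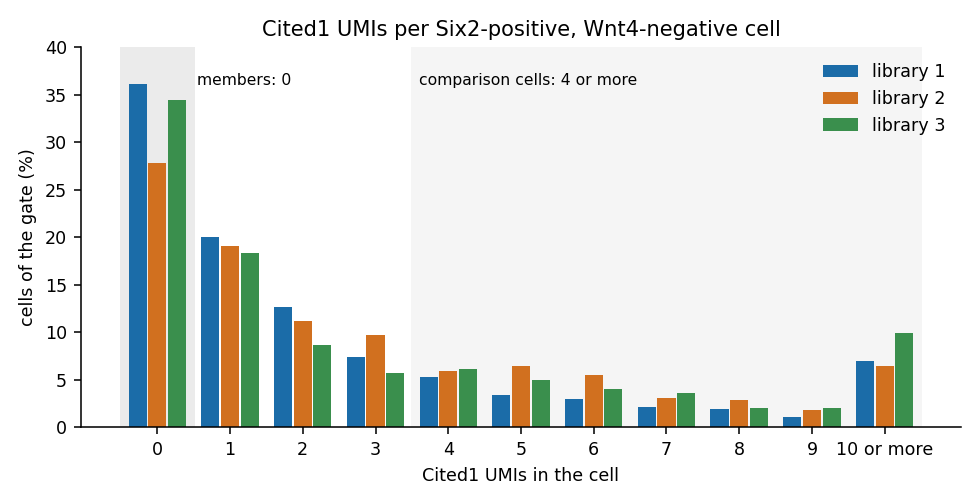
Share of gated cells (vertical axis, percent of the 473, 492 and 441 cells of libraries 1, 2 and 3) by the number of Cited1 UMIs in the cell (horizontal axis). Shading marks the cells compared. The counts fall off from 0 without a gap, and 0 is the most frequent count in each library.

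Cited1-zero cells differed from Cited1-high cells in few genes, and in all cells none of these was a progenitor regulator. Replication genes such as Cdc6, Tk1 and Rrm2 were lower, although 0 of 45 S phase genes passed in either of 2 draws of cells matched on total UMIs. The NF-kappaB inhibitor gene Nfkbia and the AP-1 gene Jun were lower, and Myc, the cyclin gene Ccnd2 and the surface protein gene Cd24a were higher, both in all cells and in 2 draws of cells matched on total UMIs. The retinoic acid synthesis gene Aldh1a2 and the signalling genes Bmp4, Epha4 and Igfbp5 were also higher in all cells. In edgeR's quasi-likelihood test with library as a block and Benjamini-Hochberg adjustment over all 10027 genes tested, 53 genes passed an adjusted p of 0.05 (0.529%), 20 of them higher in Cited1-zero cells (0.199%) and 33 lower (0.329%). All but 1 of the 53, Zfos1, had the same direction in 3 of 3 libraries, and for 18 the 2 groups did not overlap in CPM, as was the case for 4.85% of all genes tested.

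The groups differed in total UMIs, and the number of calls changed with the cells, libraries and test used. The Cited1-zero cells had a median of 14048, 12103 and 13919.5 total UMIs, the Cited1-high cells 15871, 12657.5 and 15335. Without library 1, edgeR called 0 genes (679 at an unadjusted p under 0.05), although all 53 kept their direction, and without library 2 it called 107. DESeq2's Wald test called 7 genes, all among the 53. With cells of both groups drawn to the same number in each bin of 1000 UMIs (85, 131 and 113 cells per group in libraries 1, 2 and 3), edgeR called 32 genes, 24 higher and 8 lower. In a second such draw it called 7. With groups formed on Cited1 counted after thinning to 10000 UMIs it called 40, 28 higher and 12 lower. The 2 draws are called depth-matched below. The third fit makes only the Cited1 count independent of depth and left the groups at a median of 14375, 12522 and 14080 against 16036, 12097 and 14807.5 total UMIs. In that fit 208, 161 and 173 cells counted as Cited1-zero and 73, 127 and 100 as Cited1-high. Of its Cited1-zero cells, 17.8%, 14.9% and 12.1% had a Cited1 UMI before thinning. All 3 together are called the depth-related fits. A further fit, not one of these 3, kept the groups unchanged and thinned every cell to 10000 UMIs. There edgeR called 55 genes, 36 of the 53 among them. The matched draws hold fewer cells as well as equal total UMIs, and the part of each was not tested.

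DNA replication genes were lower in Cited1-zero cells. Of 45 S phase genes, all tested, 15 fell and 0 rose, all 45 had a log2 difference below 0, and their median log2 difference was -0.34, beside a median of 0.00 over all genes tested. Summed over the list, S phase genes were at 3764, 6587 and 4014 CPM in Cited1-zero and at 4583, 7815 and 5351 CPM in Cited1-high cells of libraries 1, 2 and 3. They were lower in each library, while the groups overlapped, with library 2 high in both. Across cells of the gate with 0, 1, 2, 3 and 4 or more Cited1 UMIs, the mean of the summed level over libraries was 4788, 4845, 5607, 5703 and 5916 CPM.

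Cdc6, which loads the replicative helicase at origins (ENSMUSG00000017499, chromosome 11, 98907801 to 98923940 in GRCm38, the build also called mm10), was at 13.2, 23.7 and 17.4 CPM in Cited1-zero and 27.6, 41.6 and 34.9 CPM in Cited1-high cells. The groups did not overlap, and the log2 difference was -0.94 ± 0.16 (SE, edgeR adjusted p = 0.00686). Rrm2 (chromosome 12, 24708241 to 24714146), the regulated subunit of ribonucleotide reductase, was at 116, 340 and 115 CPM against 159, 450 and 190 CPM, lower in each library, with a log2 difference of -0.50 ± 0.06 (edgeR adjusted p = 0.000746). The thymidine kinase gene Tk1 differed by -0.72 ± 0.11 on the log2 scale, the replication clamp gene Pcna by -0.45 ± 0.07, the thymidylate synthase gene Tyms by -0.40 ± 0.07 and the polymerase epsilon subunit gene Pole2 by -0.90 ± 0.20. Rad51ap1 of homologous repair differed by -0.72 ± 0.16, the chromatin factor gene Atad2 by -0.71 ± 0.10 and the protease gene Fam111a by -0.69 ± 0.14. E2f1, the transcription factor that drives the G1 to S transition, differed by -0.62 ± 0.12, and Fbxo5, which restrains the anaphase-promoting complex until mitosis, by -0.61 ± 0.13.

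Replication genes are classical targets of E2F factors, so the promoter windows of the genes that fell were searched on both strands for the E2F-type letters TTTCCCGC, TTTCGCGC, TTTGCCGC and TTTGGCGC in the 250 bases before the transcription start (RefSeq, GRCm38.p6). Of 33 genes that fell, 25 had windows, and 3 of their 29 windows held a match (10.34%), against 3.67% of the windows of all tested genes and 1.86% of all 32851 windows. None of the 18 windows of genes that rose held one. The matches were before RefSeq starts of Cdc6, Mcm5 and Uhrf1. GENCODE M21 begins Cdc6 at 98907801 and Uhrf1 at 56303321, so these 2 matches lie inside its gene spans. The runs before Mcm5 and Uhrf1, which overlapped no annotated exon (GENCODE M21), are printed to show what a match is. Capitals mark the matched letters, in which 2 matches overlap before Mcm5, and each run is 120 bases of the plus strand, chr8:75109306-75109425 for Mcm5 and chr17:56304078-56304197 for Uhrf1.
Mcm5: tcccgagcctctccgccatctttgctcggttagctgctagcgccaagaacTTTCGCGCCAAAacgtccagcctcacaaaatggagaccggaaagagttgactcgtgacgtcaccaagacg
Uhrf1: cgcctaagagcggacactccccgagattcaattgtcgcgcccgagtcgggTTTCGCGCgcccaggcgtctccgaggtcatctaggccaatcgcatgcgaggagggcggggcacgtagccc
Mcm5, a subunit of the replicative helicase, differed by -0.38 on the log2 scale (edgeR adjusted p = 0.0239) and Uhrf1, which couples maintenance of DNA methylation to replication, by -0.35 (edgeR adjusted p = 0.0381).

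The S phase difference moved with total UMIs. In the depth-matched draws edgeR called 0 of the 45 S phase genes in each, with medians of -0.10 and -0.11, and the summed levels were 4330, 6563 and 4440 CPM in Cited1-zero against 4121, 7379 and 4858 CPM in Cited1-high cells in the first draw, so that library 1 then ran the other way. With Cited1 counted after thinning, 3 of 45 fell and the median was -0.18. In the 3 depth-related fits Cdc6 was at -0.58, -0.36 and -0.69 on the log2 scale and passed in the last (edgeR adjusted p = 0.272, 0.803 and 0.0252). Rrm2 was at 0.01, -0.02 and -0.14 in these fits and passed in none. How far total UMIs and cell cycle stage each bear on the S phase difference was not tested.

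Genes of G2 and mitosis had no call in all cells. Of 51 tested, 0 passed in edgeR in either direction, with a median of -0.11. Their summed level was 3229, 5995 and 3210 CPM in Cited1-zero and 3598, 5893 and 3657 CPM in Cited1-high cells. In the depth-related fits the calls were on the higher side in Cited1-zero cells, and with no limit on total UMIs on the lower side. In those fits edgeR called 8 of 51 higher and 0 lower in the first draw, 1 and 0 in the second, and 6 and 0 with Cited1 counted after thinning, with medians of 0.30, 0.10 and 0.21. With no limit on total UMIs it called 0 of 53 higher and 31 lower, with a median of -0.37. It called 0 higher and 2 lower without library 2, 1 higher and 0 lower without library 3, and 0 higher and 2 lower against cells of 1 to 3 Cited1 UMIs. The mitotic cyclin gene Ccnb1, chosen after its values were seen, was at 42.5, 121 and 48.4 CPM against 39.2, 86.1 and 30 CPM, a log2 difference of 0.45 ± 0.11 (edgeR adjusted p = 0.0938). In the 3 depth-related fits its difference was 0.86, 0.68 and 0.76 (edgeR adjusted p = 6.4e-06, 0.00998 and 3.14e-06). The kinetochore gene Cenpf, also chosen after its values were seen, was at 0.29 ± 0.12 in all cells, and at 0.91, 0.60 and 0.74 in the depth-related fits (edgeR adjusted p = 3.77e-05, 0.105 and 0.000122).

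**Figure D2:**
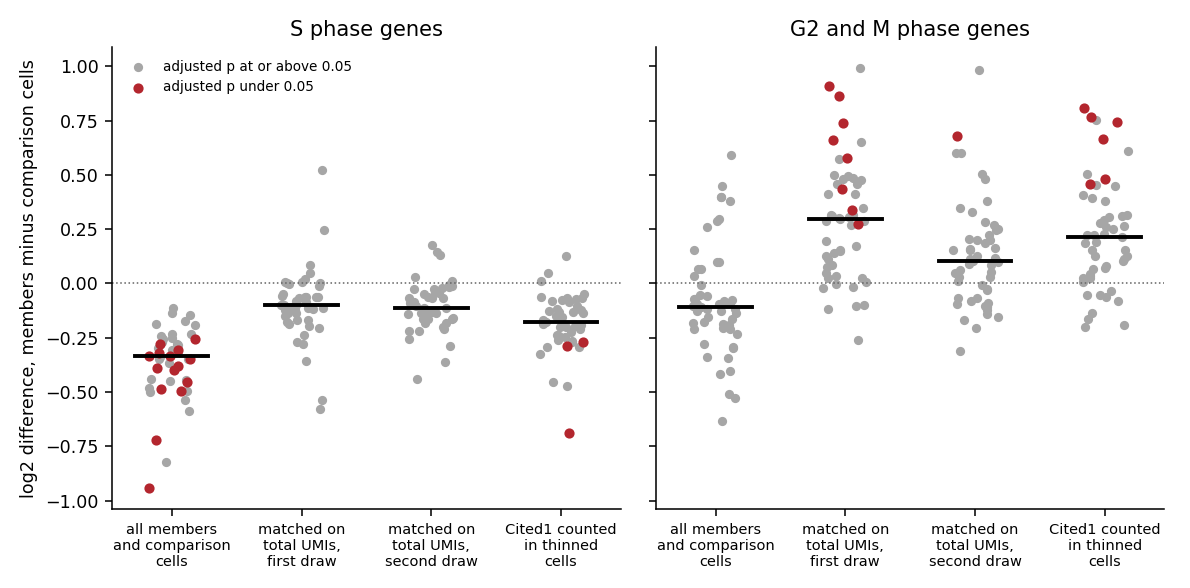
Log2 difference of each S phase gene (left) and each G2 and M phase gene (right), Cited1-zero cells (members) minus Cited1-high cells (comparison cells), in all cells and in the 3 depth-related fits. In the last of these fits both groups are set by the thinned Cited1 count. Bars are medians, and red points passed an edgeR adjusted p of 0.05. The S phase median moves from -0.34 to between -0.18 and -0.10, and the G2 and M phase median from -0.11 to between 0.10 and 0.30.

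In all, 6 genes passed in all cells and in all 3 depth-related fits with 1 direction: Nfkbia, Jun and Cpa1 were lower, and Myc, Ccnd2 and Cd24a were higher in Cited1-zero cells. The second draw and the third fit, as well as Cpa1 and Cd24a, were chosen after values were seen. The draws are subsets of the same cells. Other settings kept few of the 53 calls. In cells at or below the median cell cycle share 2 of 49 tested passed, and with at least 4 Six2 UMIs 1 of 52. Without library 1 it was 0 of 53. In the fewer cells of 15000 to 20000 UMIs, Jun passed and the other 5 kept their direction without passing, with edgeR adjusted p of 0.166 for Nfkbia and Cd24a, 0.466 for Cpa1, 0.452 for Myc and 0.214 for Ccnd2. Nfkbia (ENSMUSG00000021025, chromosome 12, 55489410 to 55492647) encodes the inhibitor that holds NF-kappaB in the cytoplasm and is itself induced by it. It was at 42.5, 55.3 and 50.3 CPM in Cited1-zero and 69.1, 78 and 87.7 CPM in Cited1-high cells. The groups did not overlap, and the log2 difference was -0.67 ± 0.10 (edgeR adjusted p = 0.00367). In the depth-related fits it was -0.85, -0.90 and -0.73. In cells with 0, 1, 2, 3 and 4 or more Cited1 UMIs its mean level over libraries was 49.4, 68.6, 67.2, 65.1 and 78.2 CPM, so the lowest level was that of the Cited1-zero cells.

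Jun (ENSMUSG00000052684, chromosome 4, 95049034 to 95052222) encodes a subunit of the AP-1 transcription factor. It was at 243, 562 and 300.2 CPM in Cited1-zero and 305, 721 and 403 CPM in Cited1-high cells of libraries 1, 2 and 3. It was lower in each library, while the groups overlapped, with library 2 high in both, and the log2 difference was -0.37 ± 0.04 (edgeR adjusted p = 0.000365). In the depth-related fits it was -0.42, -0.51 and -0.29. Without library 1 its adjusted p in edgeR was 0.0503. Of 21 immediate early genes tested, 1 fell (Jun) and 1 rose (Myc), with a median of 0.07, and Fos was at 951 CPM in Cited1-zero and 851 CPM in Cited1-high cells on average (log2 difference 0.16, edgeR adjusted p = 0.0778). Cpa1, a carboxypeptidase gene of low level here, was at 9.08, 10.7 and 7.52 CPM against 13.8, 26.8 and 15.7 CPM, a log2 difference of -1.01 ± 0.22 (edgeR adjusted p = 0.0479).

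Myc (ENSMUSG00000022346, chromosome 15, 61985391 to 61990374), the growth-promoting transcription factor gene, was at 128, 210 and 148 CPM in Cited1-zero and 84.5, 157 and 114 CPM in Cited1-high cells. It was higher in each library, with a log2 difference of 0.46 ± 0.07 (edgeR adjusted p = 0.00367), and over the Cited1 counts of 0 to 4 or more its mean level was 162, 146, 127, 120 and 119 CPM. Ccnd2 (chromosome 6, 127125162 to 127152193), which encodes a D-type cyclin of G1, was at 355, 466 and 401 CPM against 318, 376 and 358 CPM, a log2 difference of 0.21 ± 0.05 (edgeR adjusted p = 0.0448). Cd24a, which encodes a surface glycoprotein, was at 1213, 1519 and 1377 CPM against 1075, 1277 and 1189 CPM, a log2 difference of 0.22 ± 0.03 (edgeR adjusted p = 0.00107). The Wnt4-positive cells, set beside these, had Ccnd2 at 532, 713 and 445 CPM and Myc at 111, 232 and 155 CPM.

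**Figure D3:**
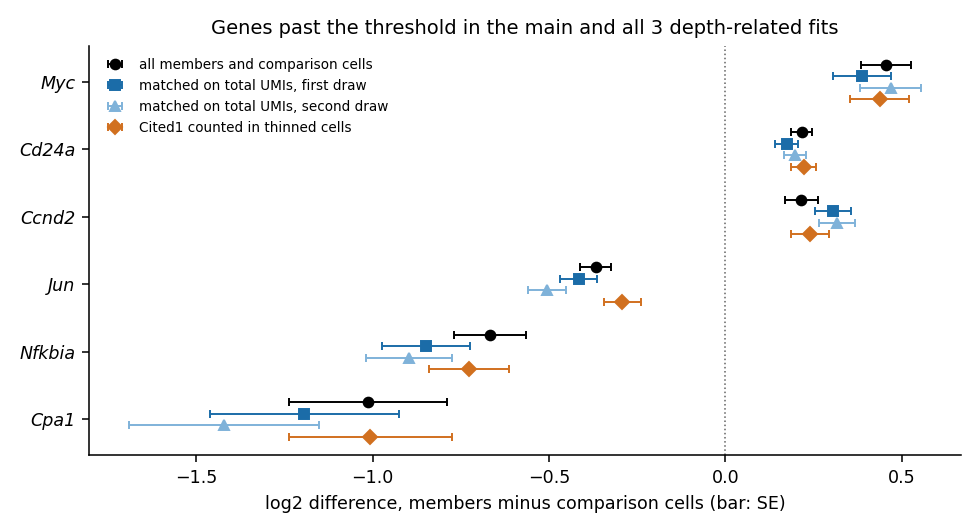
Log2 difference with its SE (horizontal axis) of the 6 genes past an edgeR adjusted p of 0.05 in all cells (black) and in all 3 depth-related fits (blue and orange). The genes were picked for passing with 1 direction in every fit shown, so that none crosses 0 follows from the choice. The 3 lower genes lie between -1.42 and -0.29.

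Signalling genes that were higher in all Cited1-zero cells included a retinoid enzyme gene and the growth factor gene Bmp4. Aldh1a2 (ENSMUSG00000013584, chromosome 9, 71215789 to 71296243), which encodes the enzyme that makes retinoic acid, was at 60.3, 65.5 and 45.6 CPM against 31.5, 43.5 and 35.8 CPM. The groups did not overlap, and the log2 difference was 0.62 ± 0.13 (edgeR adjusted p = 0.0283). It was 0.70, 0.64 and 0.53 in the depth-related fits (edgeR adjusted p = 0.00277, 0.0724 and 0.0347). Of 9 retinoid pathway genes tested, this 1 rose and 0 fell, with a median of 0.12. Bmp4 (chromosome 14, 46383520 to 46390669), a bone morphogenetic protein, was at 21.1, 31.6 and 31 CPM against 11.6, 18.7 and 18.3 CPM, with no overlap and a log2 difference of 0.79 ± 0.17 (edgeR adjusted p = 0.0381). It passed in no depth-related fit, where it was at 0.43, 0.38 and 0.59. It was the 1 of 22 genes of the BMP and TGF-beta pathway that passed, and the median of the 22 was 0.13.

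The ephrin receptor gene Epha4 (chromosome 1, 77367185 to 77515088) was at 38, 38.9 and 35.2 CPM in Cited1-zero and 21, 17.7 and 24.2 CPM in Cited1-high cells. No library overlapped, and the log2 difference was 0.83 ± 0.16 (edgeR adjusted p = 0.0202). It was 0.71, 0.52 and 0.81 in the depth-related fits and passed in the last (edgeR adjusted p = 0.0632, 0.659 and 0.00457). Its mean level was 37.4, 31.5, 26.3, 25.4 and 21 CPM with 0, 1, 2, 3 and 4 or more Cited1 UMIs. Igfbp5 (chromosome 1, 72857932 to 72874884), which encodes a binding protein of insulin-like growth factors, was at 116, 120.2 and 119.8 CPM against 95, 90.9 and 84.1 CPM, also without overlap, a log2 difference of 0.40 ± 0.08 (edgeR adjusted p = 0.0283), and passed in 2 of the 3 depth-related fits.

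Of 14 genes of the D cyclins and G1 control list, 3 rose (Ccnd2, Cdkn1a and Cdkn1c) and 1 fell (E2f1), with a median of 0.04, and 0 rose without library 1 and 1 without library 2. Cdkn1c, which encodes the imprinted cyclin-dependent kinase inhibitor p57 and is abundant in these cells, was at 2121, 2569 and 2136 CPM against 1928, 2226 and 2037 CPM, a log2 difference of 0.14 ± 0.03 (edgeR adjusted p = 0.0231). It was -0.06, -0.01 and 0.04 in the depth-related fits and passed in none. Cdkn1a, the p21 gene, was rare in both groups, at 2.89, 13.6 and 10.8 CPM against 1.66, 2.87 and 2.68 CPM (log2 difference 1.90 ± 0.38, edgeR adjusted p = 0.0265), and passed in 1 of the 3 depth-related fits. Of 12 p53 target genes tested it was the only one that passed. The antiproliferative gene Btg1 differed by 0.25 ± 0.05 and passed in 1 depth-related fit.

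The other genes named by size were Phlda1 at 0.32 ± 0.06, Tmem37 at 0.60 ± 0.13, Nrep at 0.33 ± 0.07 and Arl6ip1 at 0.32 ± 0.07 on the log2 scale. Arl6ip1, which shapes the endoplasmic reticulum, passed in 2 of the 3 depth-related fits. Phlda1 was at 448, 511 and 404 CPM against 315, 396 and 376 CPM and was at -0.02 in the first depth-matched draw, 0.11 in the second and 0.23 with Cited1 counted after thinning, where alone it passed. Tmem37 and Nrep passed in none of them.

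**Figure D4:**
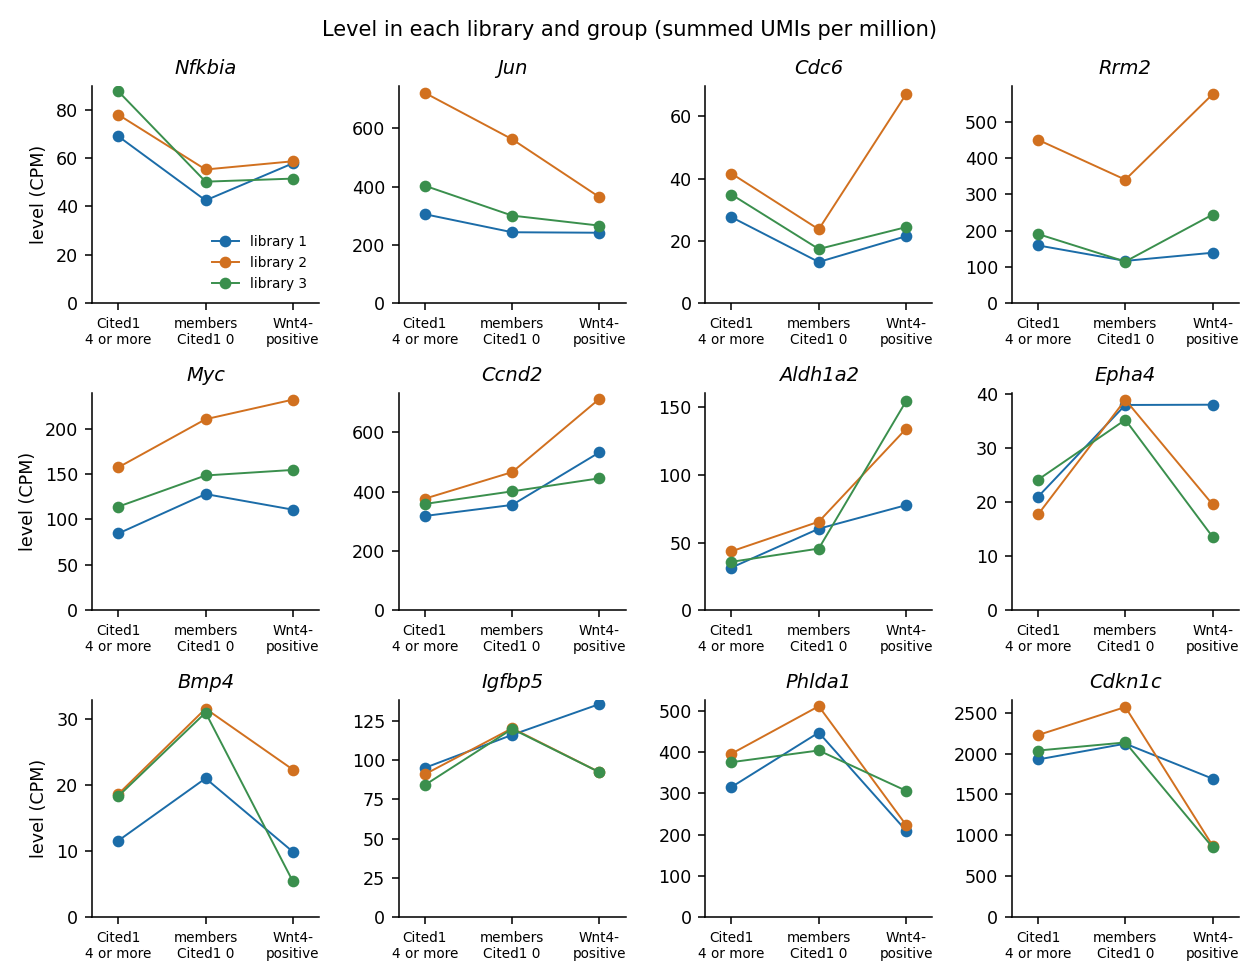
Level of 12 genes (vertical axis, CPM from summed UMIs, each axis from 0) in Cited1-high cells, Cited1-zero cells (members) and Wnt4-positive cells, with 1 line per library. Nfkbia, Jun, Cdc6 and Rrm2 are lower in Cited1-zero than in Cited1-high cells in each library, and the other 8 genes higher. The lines join groups and mark no time course.

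No progenitor regulator passed between all Cited1-zero and Cited1-high cells. Of 21 tested, edgeR called 0 in either direction (and 0 by DESeq2), with a median log2 difference of 0.05 and a summed level of 3045, 4035 and 3388 CPM against 2938, 3987 and 3266 CPM. Meox1, a homeobox gene of the uncommitted cap chosen after its values were seen, was at 90.8, 95.9 and 91.2 CPM against 107, 129 and 93.9 CPM, a log2 difference of -0.23 ± 0.09 (edgeR adjusted p = 0.388). Crym, a cap marker that encodes a thyroid hormone binding protein, differed by -0.18 ± 0.05 (edgeR adjusted p = 0.161), and Wt1, a transcription factor that progenitors need, by 0.20 ± 0.05 (edgeR adjusted p = 0.096). Both were chosen after their values were seen. Crym was the 1 of 21 that passed in the first depth-matched draw, at -0.29 (edgeR adjusted p = 0.000719), and it was at -0.19 in the second (edgeR adjusted p = 0.378). Without library 2, 1 of the 21 rose and 2 fell, Crym among these, without library 3, 1 rose and 0 fell, and with no limit on total UMIs 3 rose and 1 fell. The difference of Eya1 was 0.05 ± 0.05, so that its estimate lay within 1 SE of 0. Genes of commitment did not pass in all cells either: of 7 tested, 0 were called, with a median of 0.06. Their list sum was 191, 238 and 177 CPM against 168, 205 and 182 CPM. In the depth-matched draws 0 of 7 passed, 6 of 7 were above 0 in each, and medians were 0.20 and 0.24. The list sum was then higher in Cited1-zero cells in each library of both draws. In the first it was 216, 238 and 188 CPM against 153, 207 and 167 CPM. Without library 2, 1 of 7 rose, as did 1 of 8 with cells of 1 to 3 Cited1 UMIs in the fit. The gate had removed all cells with a Wnt4, Lhx1, Pax8 or Fgf8 UMI, which limits what this list can show.

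Further lists had few or no members past the threshold. In edgeR 0 genes passed among 16 of the FGF and ERK pathway (median 0.21), 12 of the Notch pathway (0.09), 12 of the Hippo pathway (0.12), 51 of oxidative phosphorylation (0.01), 19 of glycolysis (-0.04) and 84 cytosolic ribosomal proteins (0.03). In the FGF and ERK list, Dusp6, an ERK phosphatase gene, was at 122 CPM in Cited1-zero and 100.0 CPM in Cited1-high cells on average (edgeR adjusted p = 0.224), and the receptor gene Fgfr1 at 230 and 223 CPM (edgeR adjusted p = 0.895). The 5 class II antigen genes tested were all above 0, with a median of 0.37 and 0 past the threshold. Their sum was 38, 75.1 and 48.4 CPM against 35.9, 46.4 and 40.3 CPM.

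Markers of other cell types were compared as list sums. Immune markers summed to at most 3.3 CPM in Cited1-zero cells, with Ptprc and Csf1r at 0, and ureteric markers to at most 1.69 CPM, with Gata3 and Wnt9b at 0. Endothelial markers summed to 23.1, 24.3 and 23.5 CPM, with Cdh5 and Tie1 at 0. Stromal markers, 13 of 13 of which had a UMI, summed to 882, 878 and 822 CPM in Cited1-zero and 813, 774 and 770.2 CPM in Cited1-high cells. The stromal sums did not overlap and were higher in Cited1-zero cells in each library. Most of this was Meis2 and Meis1, and Foxd1, the defining stromal marker, was at 14.3 and 12.7 CPM on average. Neural and glial markers summed to 73.1, 98.8 and 69.5 CPM against 92.3, 91.4 and 70.7 CPM, with Sox10 at 0 in both groups. Early nephron markers, Ccnd1 among them, summed to 109, 154 and 98.7 CPM against 98.3, 127 and 117 CPM, with Irx1 at 0 in both groups and Lhx1 at 0 by the rule. All 8 stromal markers tested were above 0 and 0 passed. Their part in the differences above was not tested. Barcodes with 10 or more A and T bases of 16 were held by 11.1%, 10.9% and 13.2% of Cited1-zero and 17%, 12% and 15.2% of Cited1-high cells.

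Wnt4-positive cells were compared with Cited1-zero cells next. Among progenitor regulators Crym, Rspo3, Meox1 and Osr1 were lower, the commitment genes Tmem100, Wfdc2, Lmcd1 and Bmper were higher, and the BMP-responsive genes Id1, Id2 and Id3 rose. In edgeR's quasi-likelihood test 435 of 8842 genes passed (4.92%), 252 higher in Wnt4-positive cells (2.85%) and 183 lower (2.07%). As both comparisons share the Cited1-zero cells, their values are set side by side only. Without library 3 edgeR called 136 and without library 2 it called 247, DESeq2 called 91, and with 35, 25 and 21 cells of each group matched on total UMIs edgeR called 62. The genes below were taken from the lists by their smallest p, and all of them had 1 direction in 3 of 3 libraries.

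Of 21 progenitor regulators, 6 fell and 1 rose, with a median of -0.02, and matched on total UMIs 3 of 19 fell. Crym was at 286, 384 and 339 CPM in Cited1-zero and 203, 134 and 111 CPM in Wnt4-positive cells of libraries 1, 2 and 3, without overlap, a log2 difference of -1.06 ± 0.13 (edgeR adjusted p = 1.26e-07). Rspo3, which encodes an R-spondin that raises Wnt signalling, was at 292, 238 and 274 CPM against 164, 41.9 and 81.4 CPM, a log2 difference of -1.37 ± 0.15 (edgeR adjusted p = 9.67e-09). Meox1 differed by -0.97 ± 0.19 and Osr1, needed to form the progenitors, by -0.75 ± 0.13. Matched on total UMIs, Crym, Rspo3 and Osr1 still passed and Meox1, at -0.76, did not (edgeR adjusted p = 0.112). For Crym and Meox1 the difference from Cited1-high to Cited1-zero cells had been -0.18 and -0.23, and for Rspo3 it was 0.20.

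Of 8 commitment genes tested, 6 rose and 0 fell. The Wnt4-positive cells were chosen on Wnt4, with no limit on Pax8 and Fgf8, while the gate held Cited1-zero cells at 0 UMIs of Wnt4, Pax8 and Fgf8. Genes found in the same cells as these can rise through that choice alone, which limits what the list can show. Tmem100, a membrane protein gene, was at 2.06, 8.47 and 4.7 CPM in Cited1-zero and 13.2, 44.7 and 27.1 CPM in Wnt4-positive cells, a log2 difference of 2.50 ± 0.43 (edgeR adjusted p = 0.0001). Wfdc2 differed by 1.70 ± 0.29, Lmcd1 by 1.85 ± 0.42 and Bmper, which encodes a BMP-binding protein, by 1.01 ± 0.21. Without library 2, 2 of 8 rose, and without library 3, 3 of 8. DESeq2 called 0 of 8. Matched on total UMIs, 1 of 4 tested rose, Bmper, while Tmem100 was at 1.56 (edgeR adjusted p = 0.331) and Wfdc2 did not pass either (edgeR adjusted p = 0.101). In a list of surface and secreted genes that was chosen on these cells, and so is no independent evidence, 7 of 8 fell, and 0 of 8 had passed between Cited1-zero and Cited1-high cells. Placental growth factor, encoded by Pgf, was at 98.2, 124 and 122 CPM against 39.7, 30.8 and 35.3 CPM, and Dcx, which encodes a microtubule-binding protein, at 55.3, 53 and 52.2 CPM against 21.5, 2.8 and 10.8 CPM. Matched on total UMIs, Pgf passed and Dcx did not (edgeR adjusted p = 0.0564).

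Id2, which encodes an inhibitor of helix-loop-helix factors, was at 213, 200 and 245 CPM in Cited1-zero and 430, 1127 and 684 CPM in Wnt4-positive cells, without overlap, a log2 difference of 1.69 ± 0.13 (edgeR adjusted p = 2.34e-13). Id1 differed by 1.21 ± 0.15 and Id3 by 0.52 ± 0.09. The extracellular gene Tgfbi fell by 0.83 on the log2 scale, though matched on total UMIs it was at -0.40 and did not pass (edgeR adjusted p = 0.141). Bmp4 was at 9.92, 22.4 and 5.42 CPM in Wnt4-positive cells, a log2 difference of -1.13 (edgeR adjusted p = 0.0478). Of 16 growth and imprinted genes, 4 rose and 4 fell. Mest was at 2265, 2765 and 2337 CPM against 1564, 1266 and 1419 CPM (log2 difference -0.76 ± 0.06, edgeR adjusted p = 6.24e-13), Peg3 differed by -0.99 ± 0.09, Cdkn1c by -0.98 ± 0.10 and H19 by 0.84 ± 0.08, and these 4 passed with total UMIs matched.

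Of the genes named above as higher in Cited1-zero than in Cited1-high cells, some were lower in Wnt4-positive than in Cited1-zero cells, in comparisons that share the Cited1-zero cells: Cdkn1c, Phlda1 (-0.88, edgeR adjusted p = 6.8e-08), Nrep (-0.78), Tmem37 (-1.33) and Bmp4 passed in that direction. Aldh1a2 and Ccnd2 were higher in Wnt4-positive cells, at 77.7, 134 and 155 CPM for Aldh1a2 (log2 difference 1.04, edgeR adjusted p = 9.17e-05) and by 0.48 for Ccnd2 (edgeR adjusted p = 8.21e-05). Immediate early genes had 6 of 18 lower and 1 higher, among them Fos (-0.58 ± 0.08), Egr1 (-0.56 ± 0.09), Ier2 (-0.52 ± 0.08) and Btg2 (-0.76 ± 0.12), while Jun was not past the threshold. Matched on total UMIs Fos, at -0.30, did not pass (edgeR adjusted p = 0.318). Of the 45 S phase genes 12 rose and 0 fell, with a median of 0.35, and of 52 G2 and M phase genes 12 rose and 0 fell, with a median of 0.43. The Wnt4-positive cells had a median of 16209, 13838 and 17105 total UMIs, above the Cited1-zero cells in each library. With total UMIs matched, 0 of 43 S phase genes (median 0.10) and 2 of 38 G2 and M phase genes (median 0.27) passed.

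**Figure D5:**
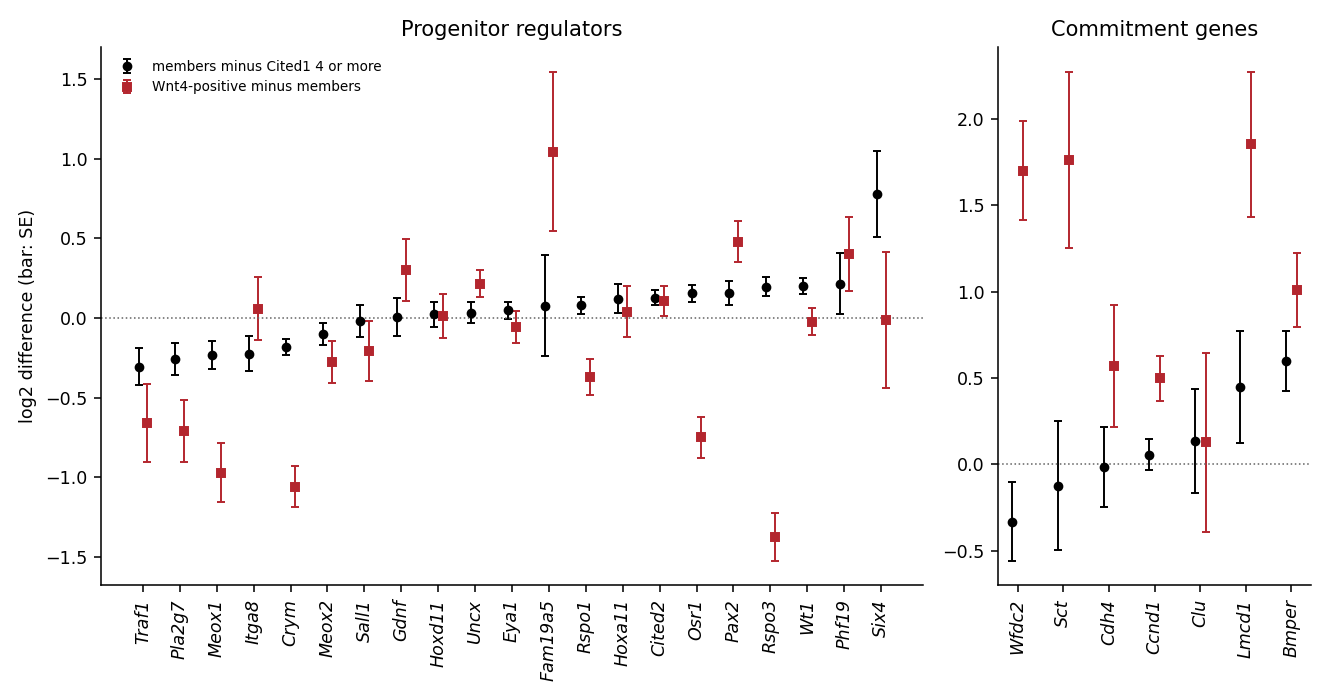
Log2 difference with its SE (vertical axis) of 21 progenitor regulators (left) and of the 7 commitment genes tested in both comparisons (right). Black circles are Cited1-zero (members) minus Cited1-high cells, where 0 genes passed, and red squares are Wnt4-positive minus Cited1-zero cells. Crym, Rspo3, Meox1 and Osr1 lie at -1.06, -1.37, -0.97 and -0.75 among the red squares.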

How the data were processed

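Single cells of 3 samples were measured. The deposited file holds the authors' UMI counts for every gene in every barcode. The submitters' processing notes name Cell Ranger 1.3.1 and the build mm10. No source used here pairs a sample title with a barcode suffix.

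UMIs were summed per library and group into 6 sums per comparison. Sums were tested with edgeR 4.0.16 (glmQLFit, glmQLFTest, TMM, filterByExpr, two-sided, library as a block, Benjamini-Hochberg over all genes tested, threshold 0.05). The block pairs groups because both come from the same tube. Genes that the rule used (Cited1, Six2, Wnt4, Lhx1, Pax8, Fgf8) and mitochondrial genes were left out before the adjustment. DESeq2 1.42.0, scanpy 1.11.5 and R 4.3.3 were used for alternatives and reading. Samples are the 3 libraries, and cells were never treated as replicates.

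The named genes are the 10 largest increases and 10 largest decreases past the threshold with 1 direction in every library and a mean of at least 20 CPM, plus up to 4 genes past the threshold in each of 34 lists. Members and lists were chosen with earlier results of these data known. The fitting was tested on simulated data. Named genes lie where GENCODE M21 places them. Alternatives changed the scaling, the filter, the tool, the block, the libraries, the depth and the rule's thresholds.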

Additional observations from a re-analysis of the deposited data

How the results depend on the processing

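Between Cited1-zero and Cited1-high cells, edgeR called 53 genes. It called 123 with no filter on low counts, 9 in cells of 15000 to 20000 UMIs, 32 and 7 in 2 draws matched on total UMIs, 100 with at least 2 and 17 with 1 to 3 Cited1 UMIs in the comparison cells, 5 with at least 4 Six2 UMIs, 398 with no limit on total UMIs, 2 in cells at or below the median cell cycle share, 23 with at most 9 A and T bases in the barcode and 118 with the cells of 1 to 3 Cited1 UMIs in the fit. DESeq2 called 7. Without the replicate block edgeR called 0 genes (300 at an unadjusted p under 0.05), as differences between libraries then count as spread. Leaving out 1 library at a time gave 0 to 107. Between Wnt4-positive and Cited1-zero cells, edgeR's 435 became 62 matched on total UMIs, 0 without the block (759 at an unadjusted p under 0.05) and 136 to 366 without 1 library, and DESeq2 called 91. The share of gated cells without Cited1 UMIs, 32.8%, was 38.6% after thinning to 10000 UMIs and 31.2% to 35.3% without 1 library.

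Some single genes changed sign. With at least 4 Six2 UMIs, Igfbp5 was at -0.17 and Rad51ap1 at 0.21. At or below the median cell cycle share, Pcna was at 0.16, Arl6ip1 at -0.014, Fbxo5 at 0.32 and Rrm2 at 0.18. Matched on total UMIs, Cdkn1c was at -0.060 (-0.0056 in the second draw), Phlda1 at -0.018 and Rrm2 at 0.0073. With no limit on total UMIs, Arl6ip1 was at -0.080, Cenpf at -0.34 and Ccnb1 at -0.37, and against cells with 1 to 3 Cited1 UMIs Meox1 was at 0.067. In Wnt4-positive cells matched on total UMIs, Pcna was at -0.066 and Tk1 at -0.060. The cause was not tested. The second matched draw, the matching of Wnt4-positive cells and the count of Cited1 after thinning were chosen after seeing the data. Between Cited1-zero and Cited1-high cells, the signs of the 26 genes named by the rule otherwise held wherever they were tested.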
